A study of Mus musculus with 24 samples.

Results

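The comparison set mouse digit tips collected 21 days after a proximal amputation against digit tips collected 12 days after the same operation. It rested on 4 libraries of each time, 8 of the 24 libraries in the series, and on all 15055 genes of the expression table. All libraries came from C57BL/6 mice between 10 and 12 weeks old, and the tissue was the hind limb digit tip with its bone, cartilage, marrow, dermis and epidermis. The other 16 libraries came from proximal amputation at 14 days and from distal amputation at 12, 14 and 21 days, again with 4 in each group. No library of an unamputated digit was analysed here, so both times were set only against each other and against distal amputation. The labels tie no library to an animal and do not say how many digits each holds. The p-values therefore speak only to the spread among the libraries as labelled, and that spread may be technical.

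The mouse digit tip regrows after amputation through the distal part of its last bone, while amputation at a more proximal level is known for closing with skin and fibrous tissue. Wounded digits pass through a phase in which osteoclasts resorb the bone stump, followed by deposition of a collagen-rich matrix by fibroblasts and, after distal amputation, by new bone. The nail, which caps the tip, is built by keratinocytes of the nail matrix that pack hard keratins and keratin-associated proteins into the plate.

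The values were whole numbers that had already been scaled between libraries, with upper quartiles from 902.5 to 930.5, and they are called normalised values below. The depth behind them is unknown. The first principal component of the 8 libraries held 52.95% of the variance and separated both times, with scores from 27.7 to 37.1 at 21 days and from -38.3 to -28.6 at 12 days. Correlations of log2 values ran from 0.98 to 0.987 within a time and from 0.955 to 0.966 between times. Of the tissues named in the labels, epidermis was represented by abundant keratin transcripts. Type I collagen transcripts, which bone shares with dermis and tendon, were abundant as well, whereas the cartilage collagen Col2a1 was low. Of blood and marrow markers, 6 of 18 neutrophil genes and 7 of 22 lymphocyte genes were in the table. So were 18 of 20 macrophage and monocyte genes and 6 of 8 erythroid genes. No erythroid gene was called, and their summed value ran from 115 to 2292 at 21 days and from 207 to 14758 at 12 days. Some libraries stood apart in groups of genes. The 12 day replicate 1 was highest in osteoclast and bone genes, such as Mmp9 with a value of 22667 against 1274 to 4023 in the other 12 day libraries. The 21 day replicates 2 and 3 were highest in S100a8 and S100a9, and the 21 day replicates 1 and 4 were higher in several hard keratins. Results that rest on these libraries are given with that fact beside them.

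At an adjusted p under 0.05 in limma, 4365 of the 15055 genes differed between 21 and 12 days, which is 29.0% of those tested. Of these, 1802 were higher at 21 days (12.0%) and 2563 were lower (17.0%). A change of over 2-fold together with that threshold was met by 261 genes in the higher direction (1.73%) and by 628 in the lower direction (4.17%). The median log2 change over all genes was -0.01. The values of all 4 libraries at 21 days lay above all 4 at 12 days for 1729 genes (11.5%) and below them for 2445 genes (16.2%). The genes that fell were drawn from collagens and the enzymes that fold and crosslink them, fibroblasts, cartilage, bone, osteoclasts, macrophages and limb patterning factors. Those that rose included hard keratins, keratin-associated proteins, immediate early genes, lipid synthesis enzymes and the DNA replication machinery. In bulk tissue, fewer cells of a type and less RNA per cell cannot be told apart.

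The 12 largest falls among genes with a group mean of at least 100 and no overlap were those of Krt9, Matn3, Capn6, Acan, H19, C1qtnf3, Bcat1, Cthrc1, Lrrc17, Ibsp, Fbn2 and Il1rl1. Capn6, a calpain-like protein that stabilises microtubules, had 62, 46, 25 and 44 at 21 days, against 639, 243, 318 and 341 at 12 days, and was 8.37-fold lower (adjusted p = 3.3e-07). C1qtnf3, a secreted protein of the C1q and TNF family, had 188, 568, 349 and 253 at 21 days, against 2105, 2089, 2264 and 2541 at 12 days, and was 7.17-fold lower (adjusted p = 1.1e-06). Il1rl1, the receptor for interleukin 33, had 42, 46, 44 and 20 at 21 days, against 415, 87, 134 and 243 at 12 days, and was 5.01-fold lower (adjusted p = 0.0020). Bcat1, which starts the breakdown of branched-chain amino acids, and Lrrc17, a secreted leucine-rich repeat protein, were 6.78-fold and 6.08-fold lower.

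**Figure D1:**
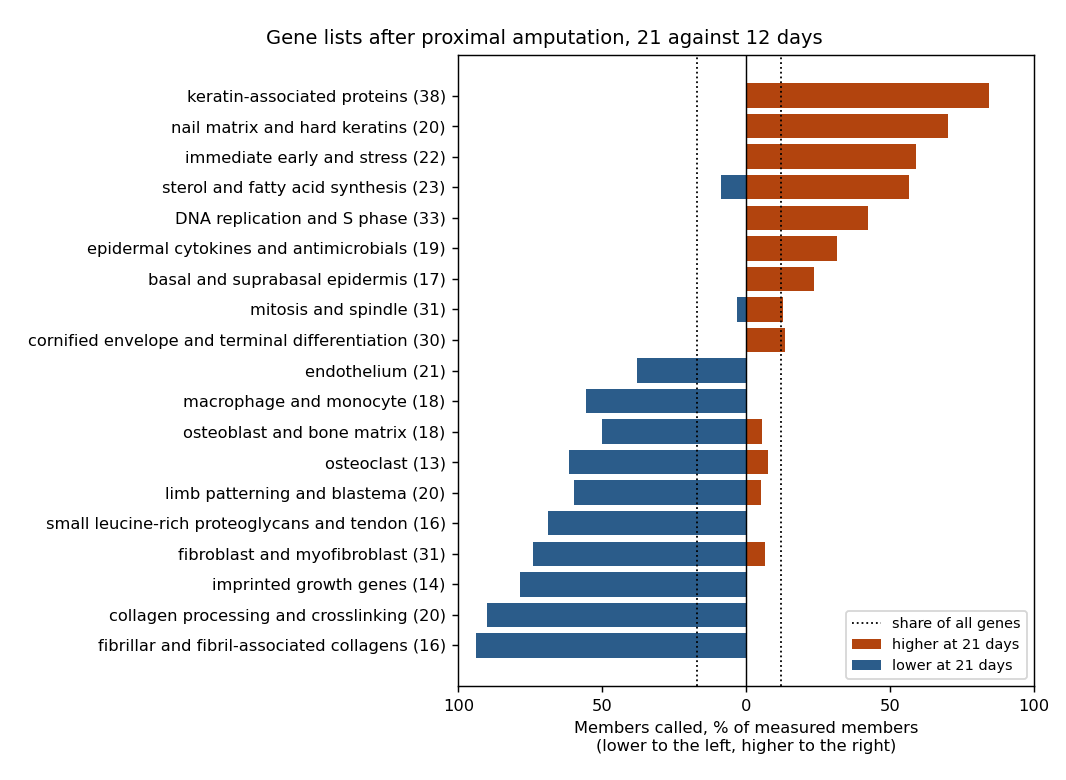
Share of the measured members of each gene list called higher (right) or lower (left) at 21 than at 12 days after proximal amputation, with the number of measured members in brackets. Dotted lines mark the share of all genes, 12.0% higher and 17.0% lower. Of the fibrillar and fibril-associated collagens, 15 of 16 lie on the lower side, and of the keratin-associated proteins 32 of 38 lie on the higher side.

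Of 16 fibrillar and fibril-associated collagens 15 fell and none rose, with a median log2 change of -1.64 against -0.01 over all genes. Col3a1, a fibrillar collagen of young and healing connective tissue, had values of 70280, 65193, 49746 and 46270 at 21 days, against 210249, 216622, 199280 and 241452 at 12 days. The groups did not overlap, and the 21 day libraries were 3.80-fold lower (log2 change -1.93 ± 0.19 SE, adjusted p = 1.8e-07). Col1a1, which encodes the main chain of the type I collagen of bone, tendon and dermis, had 95578, 66500, 54669 and 95886 at 21 days, against 311130, 188661, 195026 and 211320 at 12 days. That is a 2.92-fold lower value (log2 change -1.54 ± 0.30 SE, adjusted p = 0.00047). Col5a1, a chain that helps to set the diameter of collagen fibrils, was 4.07-fold lower, the largest fall of the list. Col14a1, a fibril-associated collagen, was the only member not called: it had values of 735, 247, 386 and 100 at 21 days, against 354, 879, 498 and 488 at 12 days, and the groups overlapped (adjusted p = 0.17). It passed the threshold when the 21 day replicate 1 was left out.

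The enzymes and chaperones of collagen maturation were lower as well. Of 20 measured members 18 fell and none rose, with a median log2 change of -1.50. Serpinh1, the collagen chaperone of the endoplasmic reticulum, had 2975, 2477, 2305 and 3510 at 21 days, against 11119, 6741, 8185 and 9467 at 12 days. It was 3.14-fold lower with no overlap (log2 change -1.65 ± 0.18 SE, adjusted p = 4.9e-07). Pcolce, which enhances the cleavage of procollagen, was 3.71-fold lower, and Plod2, a lysyl hydroxylase, was 3.29-fold lower. Lox, the copper enzyme that crosslinks collagen and elastin, was 2.99-fold lower, and its relative Loxl1 was 2.95-fold lower.

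Genes of fibroblasts and myofibroblasts followed the same direction: 23 of 31 measured members fell, 2 rose, and the median log2 change was -1.17. Postn, a matrix protein of healing and load-bearing connective tissue, had 15855, 18622, 9627 and 9533 at 21 days, against 50889, 39720, 42370 and 56214 at 12 days. Every 21 day library was below every 12 day library, by 3.65-fold on average (log2 change -1.87 ± 0.23 SE, adjusted p = 3.5e-06). Cthrc1, a secreted protein of activated fibroblasts, had 273, 259, 194 and 262 at 21 days, against 2376, 1202, 1351 and 1931 at 12 days, and was 6.72-fold lower. Fbln2, an elastic fibre protein, and Thbs2, a matricellular thrombospondin, were 3.65-fold and 3.21-fold lower. Fbn2, a microfibril protein prominent in development, was 5.8-fold lower and was among the 12 largest falls.

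The members that rose were Ctgf and Lrrc15. Ctgf, a matricellular gene that responds to TGF-beta and mechanical load, had 3025, 1199, 2156 and 1882 at 21 days, against 1154, 822, 853 and 938 at 12 days (log2 change 1.07 ± 0.18 SE, adjusted p = 0.00018). Lrrc15, a membrane protein of the leucine-rich repeat family, had 38485, 18914, 23665 and 29973 at 21 days, against 18289, 17753, 7438 and 8835 at 12 days. Its call rested on the 12 day replicate 3 and was lost when that library was left out.

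Small proteoglycans and tendon genes fell in 11 of 16 cases, with none higher and a median log2 change of -0.78. Scx, the transcription factor that marks tendon and ligament progenitors, had 103, 109, 112 and 137 at 21 days, against 330, 438, 342 and 329 at 12 days. The 21 day values were tightly grouped and 3.10-fold lower (log2 change -1.63 ± 0.10 SE, adjusted p = 4.2e-10). Fmod and Bgn, proteoglycans that bind collagen fibrils, were 3.86-fold and 3.0-fold lower. Dcn, the most abundant proteoglycan of dermis and tendon, had 4394, 3126, 5493 and 4193 at 21 days, against 5783, 5747, 5346 and 6495 at 12 days, and was not called (adjusted p = 0.066), except without the 21 day replicate 3. Tnmd, a membrane protein of mature tendon cells, had 177, 127, 261 and 192 at 21 days, against 239, 204, 387 and 137 at 12 days, and the groups overlapped (adjusted p = 0.58).

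**Figure D2:**
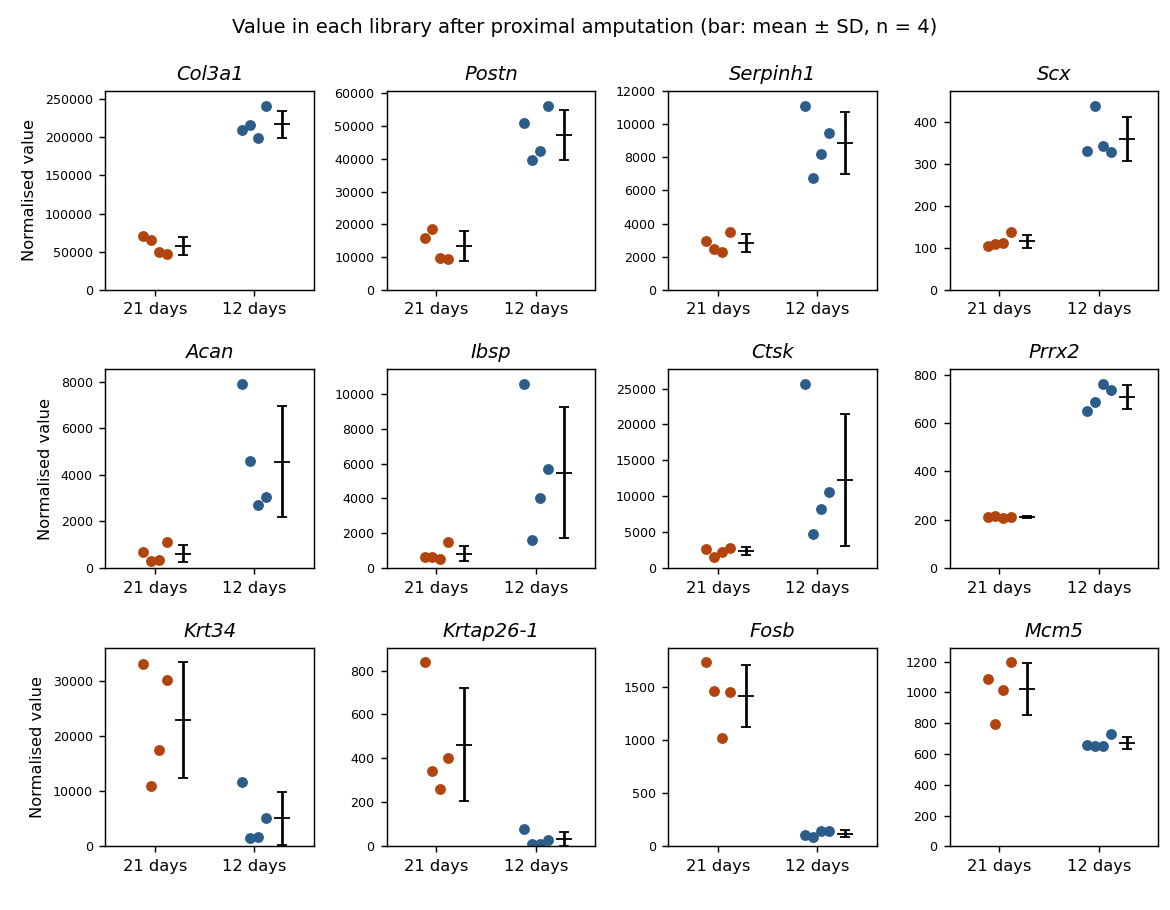
Normalised value in each library (points) at 21 and 12 days after proximal amputation for 12 genes, with the mean and SD of the 4 libraries as a bar. The 21 day points of Col3a1, Postn, Serpinh1, Scx, Acan, Ibsp, Ctsk and Prrx2 lie below all 12 day points, those of Krtap26-1, Fosb and Mcm5 lie above them, and those of Krt34 overlap with the 12 day library at 11733.

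Of 14 measured genes of cartilage matrix and its regulators 5 fell, 2 rose and 7 were not called. Acan, the large aggregating proteoglycan of cartilage, had 672, 318, 363 and 1111 at 21 days, against 7898, 4605, 2721 and 3031 at 12 days. It was 7.67-fold lower with no overlap (log2 change -2.94 ± 0.43 SE, adjusted p = 2.3e-05). Matn3, a matrilin of growth cartilage, had 13, 0, 12 and 19 at 21 days, against 206, 150, 46 and 58 at 12 days, and was 12.4-fold lower on the log2(value + 1) scale. Without the 21 day replicate 2, listed at 0, its log2 change of -3.63 became -2.65. Col11a1, a fibrillar collagen of cartilage and other connective tissue, was 4.90-fold lower. Sox9, which drives the cartilage programme and is also made in epidermal appendages, had 1407, 1086, 1519 and 1397 at 21 days, against 913, 617, 652 and 637 at 12 days (log2 change 0.95 ± 0.24 SE, adjusted p = 0.0051). Sox6, its usual partner, was 1.70-fold higher, and Sox5, the other partner, was 1.93-fold lower. Col2a1, the defining collagen of hyaline cartilage, was low at both times, with 139, 21, 25 and 159 at 21 days, against 81, 500, 102 and 143 at 12 days, and was not called (adjusted p = 0.16).

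Bone matrix genes were lower in 9 of 18 cases and higher in 1, with a median log2 change of -0.87. Ibsp, a sialoprotein of mineralising bone, had 642, 635, 536 and 1497 at 21 days, against 10578, 1634, 4047 and 5685 at 12 days. The groups did not overlap, the 12 day replicate 1 was by far the highest, and the 21 day libraries were 5.90-fold lower (log2 change -2.56 ± 0.56 SE, adjusted p = 0.0015). Sp7, the transcription factor that commits cells to the osteoblast fate, had 61, 53, 64 and 117 at 21 days, against 679, 96, 270 and 313 at 12 days, and was 3.85-fold lower (adjusted p = 0.0039), although 1 library of each group overlapped. Pth1r, the parathyroid hormone receptor of osteoblasts, was 2.91-fold lower. Bglap, the osteocalcin gene of mature osteoblasts, had 287, 71, 128 and 464 at 21 days, against 44, 24, 17 and 139 at 12 days, a log2 change of 2.19 ± 0.85 SE that missed the threshold (adjusted p = 0.056). Dmp1, a gene of mineralising osteocytes, had 106, 71, 41 and 55 at 21 days, against 108, 31, 48 and 100 at 12 days (adjusted p = 0.99). Of 6 measured osteocyte genes Pdpn, a membrane glycoprotein of early osteocytes and of lymphatic and fibroblastic cells, was the only one called, with 202, 265, 131 and 112 at 21 days, against 324, 326, 318 and 414 at 12 days (adjusted p = 0.0016). Bglap passed the threshold when the 12 day replicate 4 or the 21 day replicate 2 was left out.

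Osteoclast genes fell in 8 of 13 cases, with 1 rise and a median log2 change of -1.27. Ctsk, the collagen-degrading protease of osteoclasts, had 2603, 1551, 2288 and 2809 at 21 days, against 25639, 4688, 8225 and 10578 at 12 days. It was 4.48-fold lower with no overlap (log2 change -2.16 ± 0.44 SE, adjusted p = 0.00084). Acp5, the tartrate-resistant phosphatase used to stain these cells, had 805, 707, 1109 and 1239 at 21 days, against 7558, 903, 1688 and 2252 at 12 days. It missed the threshold (log2 change -1.26 ± 0.48 SE, adjusted p = 0.053) and passed it without the 12 day replicate 2. Itgb3, an integrin of the resorbing cell surface, was 2.41-fold lower. The member that rose was Car2, a carbonic anhydrase that is also made outside osteoclasts, at 2.06-fold. Summed over the 13 genes, the normalised value ran from 9391 to 10393 at 21 days and from 11589 to 66391 at 12 days, with the upper end set by replicate 1.

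Macrophage and monocyte genes fell in 10 of 18 cases, rose in none and were not called in 8, with a median log2 change of -0.86. Csf1r, the receptor for the macrophage growth factor, had 687, 514, 621 and 679 at 21 days, against 2448, 947, 1174 and 1269 at 12 days, and was 2.19-fold lower (adjusted p = 0.0021). Its highest value was in the 12 day replicate 1, the library that was also highest in osteoclast genes. Whether the falls of macrophage and osteoclast genes are separate was not tested. Cd68, a lysosomal protein of macrophages and osteoclasts, was 2.43-fold lower. Their summed value ran from 5487 to 8836 at 21 days and from 9194 to 19550 at 12 days. Endothelial genes were lower in 8 of 21 cases and higher in none, beside 17.0% lower among all genes. The count was 4 without the 12 day replicate 4 or the 21 day replicate 3, a share near that of all genes. It was 5 without the 21 day replicate 4. Kdr, the main receptor for vascular endothelial growth factor, was 1.67-fold lower, and Pecam1, a junction protein of all endothelium, had 1555, 1308, 1030 and 1147 at 21 days, against 1233, 1414, 1593 and 1774 at 12 days (adjusted p = 0.28).

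Matrix metalloproteinases, which cleave the matrix and other extracellular proteins, were lower in 6 of 14 cases and higher in none. Mmp2 and Mmp14, the gelatinase and its membrane-bound activator in fibroblasts, were 2.47-fold and 3.10-fold lower with no overlap. Mmp14 had 3447, 3613, 2371 and 3347 at 21 days, against 10473, 10833, 8734 and 9167 at 12 days (adjusted p = 2.8e-09). Mmp9, the gelatinase of osteoclasts and neutrophils, had 1373, 1945, 1275 and 1939 at 21 days, against 22667, 1274, 4023 and 3835 at 12 days. The groups overlapped and it was not called (adjusted p = 0.076), except without the 12 day replicate 2.

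Genes that pattern the limb and the blastema were lower in 12 of 20 cases and higher in 1, with a median log2 change of -1.0. Prrx2, a homeobox gene of limb mesenchyme, had 210, 217, 207 and 211 at 21 days, against 650, 687, 762 and 736 at 12 days. The spread within each time was small, and the 21 day libraries were 3.34-fold lower (log2 change -1.74 ± 0.12 SE, adjusted p = 7.2e-10). Prrx1, its relative, was 2.40-fold lower, and Twist1, a mesenchymal transcription factor, was 2.96-fold lower. Msx1, a homeobox gene known for its requirement in digit tip regeneration, had 357, 219, 273 and 385 at 21 days, against 599, 596, 873 and 652 at 12 days, and was 2.23-fold lower (adjusted p = 0.00083). Tbx4, the T-box gene that marks the hind limb, was 2.69-fold lower, with 59, 40, 64 and 50 at 21 days, against 121, 136, 178 and 141 at 12 days. Lef1, a nuclear partner of Wnt signalling, had 48, 40, 57 and 45 at 21 days, against 70, 27, 35 and 25 at 12 days (adjusted p = 0.54).

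Posterior Hox genes, which specify the distal limb, were lower in 8 of 14 cases and higher in 1. Hoxa13, the gene of the hand and foot plate, had 86, 85, 60 and 88 at 21 days, against 237, 211, 226 and 202 at 12 days, and was 2.75-fold lower (adjusted p = 2.1e-05). Hoxd13, its counterpart of the D cluster, was 2.18-fold lower. Hoxc13, which controls hair and nail keratin genes, was the member that rose, with 1418, 871, 1573 and 1457 at 21 days, against 731, 496, 359 and 469 at 12 days (log2 change 1.38 ± 0.23 SE, adjusted p = 9.0e-05).

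Imprinted genes linked to growth were lower in 11 of 14 cases and higher in none, with a median log2 change of -1.09. H19, a long non-coding RNA expressed from the maternal allele, had 104, 168, 189 and 316 at 21 days, against 704, 2354, 1499 and 1331 at 12 days. It was 7.46-fold lower (log2 change -2.90 ± 0.34 SE, adjusted p = 1.5e-06). Mest, a paternally expressed mesodermal gene, and Grb10, an adaptor that dampens insulin and growth factor signalling, were 3.79-fold and 3.47-fold lower. Igf2, the growth factor gene next to H19, had 422, 359, 368 and 280 at 21 days, against 185, 351, 441 and 342 at 12 days, and was not called (adjusted p = 0.68).

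Among signalling genes, 9 of 20 in the TGF-beta list fell and none rose, 11 of 38 in the Wnt list fell and 2 rose, and 8 of 29 in the BMP list fell and 3 rose. Over all genes 17.0% fell and 12.0% rose. The TGF-beta count was 5 without the 12 day replicate 1 or the 21 day replicate 3. Tgfb3, a ligand of the TGF-beta family, was 2.94-fold lower, with 600, 570, 720 and 697 at 21 days, against 1520, 1882, 2318 and 1946 at 12 days (adjusted p = 1.3e-07). Wnt5a, a ligand known for limb outgrowth, was 2.05-fold lower, and Fzd1, a Wnt receptor, was 1.86-fold lower. Chrdl1 and Fstl1, secreted proteins that bind BMPs or related ligands, were 3.68-fold and 3.17-fold lower. Cyp26a1, which degrades retinoic acid, had 21, 5, 22 and 13 at 21 days, against 43, 56, 63 and 64 at 12 days and was 3.96-fold lower (adjusted p = 0.0011). In the retinoic acid list 2 of 14 measured genes fell and none rose, a share near the 17.0% of all genes. Of 17 measured IGF axis genes 8 fell and 1 rose. The member that rose was Stc1, a secreted glycoprotein counted here through its partner Pappa, at 2.62-fold.

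The 12 largest rises were those of Gm11564, Krtap28-10, Krtap26-1, Krtap4-13, Gprc5d, Gm11596, Far2, Gm11568, Gm11559, Klk6, Gm11555 and Fosb. Of 20 nail matrix and hard keratin genes 14 rose and none fell, with a median log2 change of 2.26. Of the 38 genes in the table whose symbol begins with Krtap, a family chosen after its values were seen, 32 rose and none fell. Every gene kept in the table peaks at 20 or higher across the 24 libraries. Krtap genes with a lower peak are absent, so these counts speak only for the 38 listed. Krt34, an acidic hair and nail keratin, had 33106, 10939, 17387 and 30075 at 21 days, against 11733, 1569, 1690 and 5200 at 12 days. It was 5.85-fold higher (log2 change 2.55 ± 0.54 SE, adjusted p = 0.0011), and the highest 12 day library, replicate 1, overlapped with the 21 day replicate 2. Krt86, a basic hair keratin, was 6.00-fold higher with the same overlap. Krtap26-1 had 838, 340, 261 and 402 at 21 days, against 75, 6, 9 and 27 at 12 days, a 21.2-fold difference (log2 change 4.41 ± 0.65 SE, adjusted p = 3.1e-05). Krtap28-10 had 195, 107, 94 and 152 at 21 days, against 12, 1, 3 and 3 at 12 days, a 29.3-fold difference. Gprc5d, an orphan receptor of hair and nail keratin-producing cells, had 1351, 743, 794 and 1108 at 21 days, against 225, 49, 24 and 24 at 12 days. The 12 day replicate 1 was the highest of its group in these genes, and without it the log2 change was 4.95 for Gprc5d, 3.18 for Krt86 and 5.06 for Krtap26-1.

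Gm11564, Gm11596, Gm11568, Gm11559 and Gm11555, which the annotation places on chromosome 11 as protein-coding genes, stood beside Krtap genes among the largest rises. Gm11564 lies at chr11:99814976-99815666 (GENCODE vM21 on GRCm38) and Krtap4-13 at chr11:99809078-99809892, both on the minus strand. Genes of these clusters are near-identical in places, so reads may have been split between copies and single-gene values are uncertain. The change of Gm11568, Gm11559 and Gm11555 was also larger without the 12 day replicate 1, with log2 values of 4.57, 4.51 and 4.29 against 3.89, 3.83 and 3.64 with it. Krt84 and Krt36, nail keratins already abundant at 12 days, were not called, although Krt36 was called without the 12 day replicate 4 or the 21 day replicate 2. Krt84 had 70718, 23604, 44522 and 59896 at 21 days, against 29390, 15745, 18260 and 67441 at 12 days (adjusted p = 0.33).

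Of 17 genes of the basal and suprabasal epidermis 4 rose and none fell, and of 30 cornified envelope genes 4 rose and none fell, the second a share near the 12.0% of all genes. The cornified envelope count was 2 without the 12 day replicate 3 and 7 without the 12 day replicate 4. Krt6a, a keratin of wound edges and of the nail bed, had 60193, 60698, 69737 and 46207 at 21 days, against 27234, 29632, 23479 and 40136 at 12 days, and was 1.98-fold higher (adjusted p = 0.0071). Krt15, a keratin of basal and stem cells, was 2.68-fold higher. Krt9, the keratin of sole and footpad skin, was the gene with the largest fall: it had 2854, 363, 41 and 159 at 21 days, against 5572, 9242, 5970 and 13983 at 12 days. Its groups did not overlap, its spread was wide (log2 change -4.81 ± 1.38 SE, adjusted p = 0.012), and the call was lost without the 21 day replicate 3 (log2 change -3.88). Without the 21 day replicate 1, which held its highest value of that group, the log2 change was -5.91. Kallikreins, serine proteases of the shedding epidermis, included Klk6, with 269, 766, 1630 and 86 at 21 days, against 16, 53, 25 and 39 at 12 days (adjusted p = 0.0022), and Klk14, which was 6.50-fold higher. The log2 change of Klk6 was 3.73 with all libraries, 3.07 without the 21 day replicate 3 and 4.48 without the 21 day replicate 4. Genes for epidermal cytokines and antimicrobial peptides rose in 6 of 19 cases, beside 12.0% of all genes. The count was 3, a share near that of all genes, without the 12 day replicate 3 or the 21 day replicate 1 or 2. Defb14, a beta-defensin, had 126, 119, 134 and 106 at 21 days, against 51, 66, 30 and 50 at 12 days (adjusted p = 0.0039), and Hbegf, an EGF-like ligand of keratinocytes, was 1.82-fold higher.

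Transcripts of lipid synthesis genes were more often higher than lower at 21 days, with large differences between libraries. Of 23 sterol and fatty acid synthesis genes 13 rose and 2 fell. Scd1, the desaturase of sebaceous and fat cells, had 3385, 22495, 26982 and 15726 at 21 days, against 2457, 2040, 3628 and 4300 at 12 days. It was 4.51-fold higher (adjusted p = 0.0011), and the 21 day replicate 1 lay within the 12 day range. Far2, which makes fatty alcohols for waxes, had 287, 1700, 3352 and 2612 at 21 days, against 40, 51, 118 and 239 at 12 days, and Elovl6, a fatty acid elongase, had 1079, 4413, 12634 and 5789 at 21 days, against 434, 418, 779 and 1183 at 12 days. Both had their lowest 21 day value in the same replicate 1. Without that library the log2 change was 2.83 for Scd1, 4.8 for Far2 and 3.42 for Elovl6, against 2.17, 4.03 and 2.75 with it. Mc5r, a melanocortin receptor of sebaceous glands, had 16, 112, 94 and 80 at 21 days, against 9, 7, 20 and 17 at 12 days, and its log2 change was 2.23 with that library and 2.86 without it. Of 9 measured sebaceous and sweat gland markers 3 rose, 1 fell and 5 were not called. They summed to between 8374 and 33535 at 21 days and between 6540 and 13852 at 12 days. This sum includes Scd1 itself, so it is not separate from the lipid values above. Of 7 measured adipocyte markers, Scd1 again among them, 4 rose and none fell. Their sums ran from 8767 to 32147 at 21 days and from 6443 to 10229 at 12 days. The part of these glands or of fat cells in the lipid result was not tested.

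The calcium-binding pair S100a8 and S100a9, made by neutrophils and by injured keratinocytes, differed within the 21 day group. S100a8 had 247, 2851, 2830 and 145 at 21 days, against 152, 114, 47 and 212 at 12 days, and its call (adjusted p = 0.039) was lost on leaving out the 12 day replicate 1, 2 or 3 or the 21 day replicate 2 or 3. Its log2 change was 2.67 with all libraries, 2.02 without the 21 day replicate 2 or the 21 day replicate 3 and 3.44 without the 21 day replicate 4. S100a9 had 96, 3080, 3103 and 98 at 21 days, against 161, 107, 44 and 151 at 12 days, and was not called (adjusted p = 0.14). Of 6 measured neutrophil markers S100a8 was the only one called. Cxcr2, a neutrophil chemokine receptor, had 101, 94, 68 and 73 at 21 days, against 97, 71, 106 and 109 at 12 days, and the 21 day replicates 2 and 3 did not stand apart in it. Lcn2, an iron-binding protein of neutrophil granules and of epithelium, had 18, 142, 86 and 17 at 21 days, against 24, 31, 41 and 40 at 12 days, with its higher values in the same replicates 2 and 3 (adjusted p = 0.61).

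Immediate early and stress genes rose in 13 of 22 cases and fell in none, with a median log2 change of 0.43. Fosb, a subunit of the AP-1 transcription factor, had 1731, 1460, 1020 and 1448 at 21 days, against 105, 88, 140 and 148 at 12 days. Every 21 day library was far above every 12 day library, by 11.7-fold (log2 change 3.55 ± 0.34 SE, adjusted p = 9.1e-08). Dusp1, a phosphatase that switches off MAP kinases, had 3225, 2847, 2937 and 3556 at 21 days, against 947, 823, 891 and 867 at 12 days (log2 change 1.83 ± 0.16 SE, adjusted p = 2.8e-08). Fosl1 and Fos were 4.40-fold and 3.62-fold higher. Among 17 circadian genes 4 rose and 5 fell: Dbp, an output of the clock, was 2.48-fold lower, and Per1, a core clock gene that also responds to acute signals, was 1.76-fold higher.

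Of 33 DNA replication and S phase genes 14 rose, none fell and 19 were not called, and all 33 had a positive log2 change with a median of 0.26. Their summed value ran from 12772 to 18166 at 21 days and from 11685 to 13116 at 12 days, so the groups overlapped in the sum. Mcm5, a subunit of the helicase that opens origins, had 1089, 795, 1017 and 1196 at 21 days, against 661, 652, 650 and 729 at 12 days. It was 1.51-fold higher with no overlap (log2 change 0.59 ± 0.15 SE, adjusted p = 0.0056). Mcm3, another subunit, had 818, 541, 668 and 732 at 21 days, against 442, 472, 476 and 533 at 12 days (adjusted p = 0.0082). Pole, the leading strand polymerase, was 1.47-fold higher. Pcna, the sliding clamp, had 734, 510, 734 and 732 at 21 days, against 502, 482, 538 and 620 at 12 days, and was not called (adjusted p = 0.074), except without the 12 day replicate 4 or the 21 day replicate 2. Of 31 mitosis and spindle genes 4 rose and 1 fell, a share of rises near the 12.0% of all genes, and 2 rose without the 12 day replicate 3 or the 21 day replicate 4. Mki67, the proliferation antigen, had 5787, 4455, 5204 and 6888 at 21 days, against 3973, 4091, 3204 and 4221 at 12 days, and was 1.43-fold higher (adjusted p = 0.0057). Anln, an actin-binding protein of the cleavage furrow, was 1.37-fold higher, and Aurka, a spindle kinase, was the member that fell, at 1.69-fold lower.

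E2F factors drive replication genes and the DREAM complex acts on many mitosis genes, and both read short promoter elements, so the promoters of called members are shown. RefSeq promoters (GRCm38.p6), from 250 bases before to 50 after each start site, were matched to 27 of the 33 replication genes, 26 of the 31 mitosis genes and 10756 of the 15055 table genes. Windows were searched on both strands for the E2F elements TTTCCCGC or TTTGGCGC, for the cell cycle homology region TTTGAA and for CCAAT. None of these letter strings overlaps another in the windows printed. Mcm5 lies at chr8:75109259-75109558 on the plus strand, Mcm3 at chr1:20820263-20820562, Mki67 at chr7:135716330-135716629 and Anln at chr9:22389157-22389456 on the minus strand. Capitals mark the E2F elements in Mcm5 and Mcm3, TTTGAA and CCAAT in Mki67, and TTTGAA in Anln, or their reverse complements. The Anln window holds no CCAAT.
Mcm5: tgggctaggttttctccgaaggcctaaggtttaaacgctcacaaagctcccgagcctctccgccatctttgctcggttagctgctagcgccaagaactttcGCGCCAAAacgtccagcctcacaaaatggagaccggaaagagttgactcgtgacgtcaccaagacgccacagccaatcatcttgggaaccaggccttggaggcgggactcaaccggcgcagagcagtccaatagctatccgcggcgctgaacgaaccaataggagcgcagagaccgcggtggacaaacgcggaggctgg
Mcm3: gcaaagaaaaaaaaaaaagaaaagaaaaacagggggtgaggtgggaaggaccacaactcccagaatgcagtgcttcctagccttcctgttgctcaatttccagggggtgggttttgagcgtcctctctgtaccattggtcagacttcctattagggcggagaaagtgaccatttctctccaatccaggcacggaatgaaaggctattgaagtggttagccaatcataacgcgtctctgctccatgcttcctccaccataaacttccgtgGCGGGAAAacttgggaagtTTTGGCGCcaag
Mki67: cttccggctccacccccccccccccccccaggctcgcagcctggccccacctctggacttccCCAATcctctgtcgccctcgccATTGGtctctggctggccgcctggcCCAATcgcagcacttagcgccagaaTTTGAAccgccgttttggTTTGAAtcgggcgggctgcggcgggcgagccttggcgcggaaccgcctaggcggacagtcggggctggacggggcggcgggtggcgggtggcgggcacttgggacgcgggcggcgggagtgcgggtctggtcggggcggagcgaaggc
Anln: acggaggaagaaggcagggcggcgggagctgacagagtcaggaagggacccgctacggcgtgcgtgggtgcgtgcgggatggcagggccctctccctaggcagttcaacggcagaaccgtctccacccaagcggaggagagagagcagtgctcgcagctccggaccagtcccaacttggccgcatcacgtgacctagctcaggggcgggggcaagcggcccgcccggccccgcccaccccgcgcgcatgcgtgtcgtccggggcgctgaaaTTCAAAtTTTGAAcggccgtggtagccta
An E2F element was present in 6 of the 11 replication genes that were called higher and had a promoter (54.5%), in 3 of the other 16 (18.8%) and in 3.25% of all promoters. CCAAT also differed between these sets, with 10 of the 11 (90.9%) and 6 of the other 16 (37.5%), beside 42.1% of all promoters. TTTGAA was present in 19 of 26 mitosis genes (73.1%) and in 14.4% of all promoters, and CCAAT in 73.1% and 42.1%. A match of letters is a description and does not show that a factor binds there.

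Against distal amputation, the change between 21 and 12 days differed for many of these genes. The difference of both changes passed the threshold for 1117 genes in the direction above distal (7.42%) and for 1117 below it (7.42%). After distal amputation itself, 1326 genes were higher at 21 days (8.81%) and 2258 were lower (15.0%). With values scaled to the table totals in place of the deposited scaling, the counts were 1374 above and 595 below, and the median difference over all genes moved to 0.105. Replication genes stood above the distal change in 26 of 33 cases, with a median change of 0.26 after proximal and -0.58 after distal amputation. Mitosis genes stood above it in 30 of 31 cases, with medians of 0.11 and -0.97. Mki67 changed by 0.52 ± 0.13 after proximal amputation and by -0.68 ± 0.13 after distal amputation (log2 ± SE), a difference of 1.19 ± 0.19 (adjusted p = 0.00025).

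Of the 16 fibrillar and fibril-associated collagens 12 stood below the distal change and none above it, with median changes of -1.64 after proximal and -0.33 after distal amputation. Postn changed by -1.87 ± 0.23 after proximal and by -0.45 ± 0.23 after distal amputation, a difference of -1.42 ± 0.33 (adjusted p = 0.0055). Its mean was 13409 at 21 days and 47298 at 12 days after proximal amputation, beside 11154 at 21 days and 15020 at 12 days after distal amputation. Scx changed by -1.63 ± 0.10 after proximal and by -0.05 ± 0.10 after distal amputation (adjusted p of the difference 1.3e-06). Tgfb3 changed by -1.56 ± 0.15 after proximal and by 0.53 ± 0.15 after distal amputation (adjusted p of the difference 3.5e-06). The same was found for 15 of 31 fibroblast and myofibroblast genes, 9 of 20 collagen processing genes and 8 of 16 small proteoglycan and tendon genes, with none above in any of these lists. Of the 20 limb patterning genes 8 stood below the distal change and none above it.

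For osteoclast genes none of 13 differences passed the threshold in limma and 3 had an unadjusted p under 0.05, with median changes of -1.27 after proximal and -2.61 after distal amputation. For Ctsk the difference was 0.62 ± 0.62 (adjusted p = 0.55), and for Ibsp it was 0.17 ± 0.79 (adjusted p = 0.92), intervals that leave room for sizeable differences either way. Of 6 measured neutrophil markers 5 stood above the distal change and none below it, with median changes of 0.63 after proximal and -3.32 after distal amputation. For S100a9 the difference was 6.28 with all libraries, 5.45 without the 21 day replicate 2 and 5.45 without the 21 day replicate 3 of the proximal group, the libraries with its high values, and 7.11 without replicate 1 and 7.10 without replicate 4. Among the 20 hard keratin genes only Krt82, a keratin of the hair cuticle, passed, with a change of 2.30 ± 0.31 after proximal and of 0.26 ± 0.31 after distal amputation. Of the 38 Krtap genes 9 stood above the distal change and none below it, with median changes of 2.42 after proximal and 0.93 after distal amputation. Of the 22 immediate early and stress genes 11 rose and none fell after distal amputation as well. Their median changes were 0.425 after proximal and 0.435 after distal amputation, and 1 stood above the distal change and 1 below it. Among them Fosb changed by 3.55 ± 0.34 after proximal and by 2.5 ± 0.34 after distal amputation, a difference that did not pass (adjusted p = 0.15). Col10a1, the collagen of hypertrophic cartilage, changed by 1.26 ± 0.65 after proximal amputation, which was not called, and by 5.79 ± 0.65 after distal amputation (adjusted p of the difference 0.0020). Mmp13, the collagenase of osteoblasts and hypertrophic cartilage, changed by -0.81 ± 0.44 after proximal amputation, which was called only without the 12 day replicate 2, and by -4.12 ± 0.44 after distal amputation (adjusted p of the difference 0.0011).

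**Figure D3:**
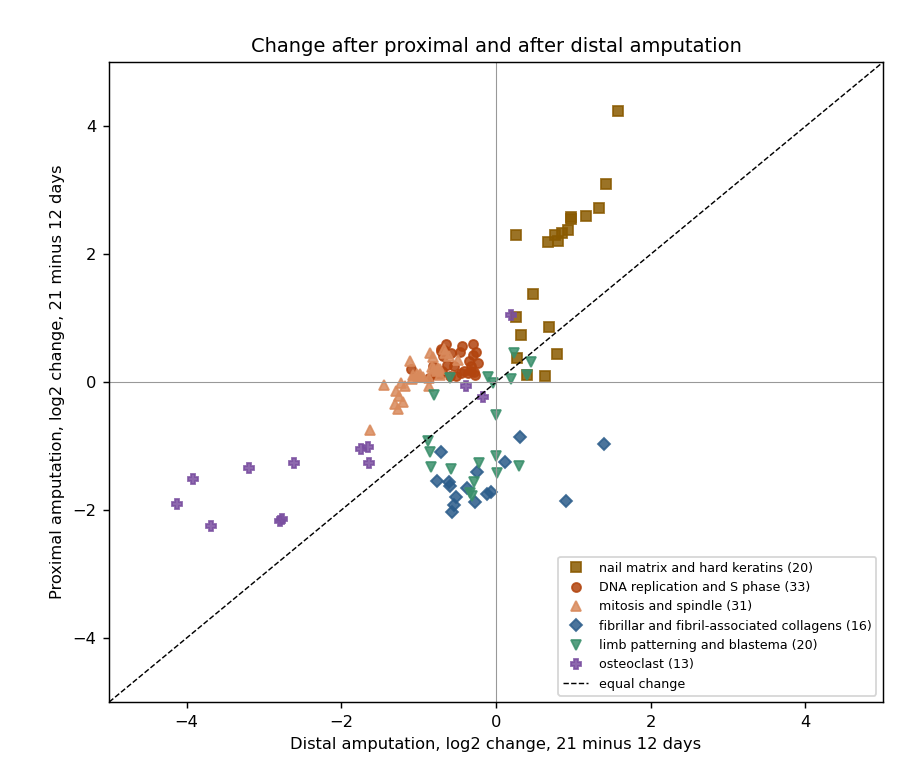
Log2 change between 21 and 12 days after proximal amputation (vertical) against the same change after distal amputation (horizontal) for the measured members of 6 gene lists, with a dashed line of equal change. Replication and mitosis genes lie above the line on its left, collagens and limb patterning genes mostly below it, and osteoclast genes spread to the far left.

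The 14 day libraries of the proximal series were set beside these changes. The mean at 14 days lay between the 12 and 21 day means for 1124 of the 1802 genes called higher (62.4%) and for 1726 of the 2563 called lower (67.3%). Postn averaged 47298 at 12 days, 30793 at 14 days and 13409 at 21 days. Col1a1 did not fall in that way: it averaged 226534 at 12 days, 331090 at 14 days and 78158 at 21 days. The hard keratins Krt34 and Krt33b had their highest mean at 14 days. Krt34 averaged 5048 at 12 days, 42657 at 14 days and 22877 at 21 days, and its 14 day libraries ran from 21550 to 66408. Krt33b, another acidic hair keratin, averaged 8498 at 12 days, 84743 at 14 days and 33763 at 21 days. Fosb averaged 120.3 at 12 days, 453.3 at 14 days and 1415 at 21 days. These are descriptions, since only the 21 and 12 day groups were tested here.

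**Figure D4:**
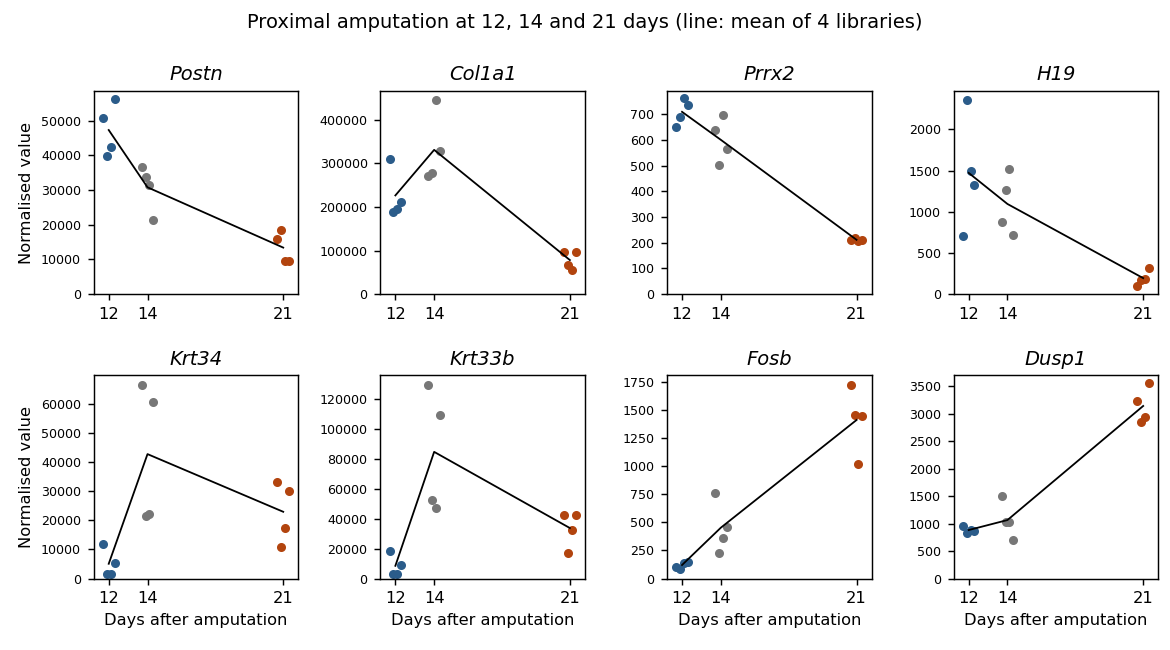
Normalised values of 8 genes in each library at 12, 14 and 21 days after proximal amputation (points), with a line through the means of 4 libraries. Postn, Prrx2 and H19 decline across the times, Col1a1, Krt34 and Krt33b are highest at 14 days, and Fosb and Dusp1 are highest at 21 days.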

How the data were processed

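Total RNA of mouse digit tips was depleted of ribosomal RNA and sequenced, per the labels' protocols. Cutadapt, STAR 2.5.4b, featureCounts 1.6.3 from Subread and mm10 are named in the submitters' processing notes. The deposited table holds whole numbers that behave as normalised and rounded values rather than raw counts, and each deposited value was therefore treated as a score: the upper quartiles of the 24 libraries ran from 902.5 to 930.5, and over 9650 genes with all values above 100 the libraries' least varying direction spread by 0.006737 natural log units, against 0.04528 expected from counting alone. The scaling step is not recorded in the sources used here, depth is unknown, and p-values may be too small. The sources used here do not state whether counting used strand, and without strand a gene's reads and those of its antisense partner cannot be told apart.

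Log2(value + 1) of all 24 libraries was fitted with 6 group means in limma 3.58.1 (R 4.3.3, eBayes with trend, 18 residual and 3.909 prior degrees of freedom), and p-values were adjusted by the Benjamini-Hochberg method over 15055 genes. Because 1 was added before taking logs, fold changes of genes with low values are understated. On simulated data with 200 changed genes of 15055, 85.2% of 2-fold and 97.7% of 4-fold changes were recovered, and 3.82% of calls were false. These shares hold for that setting only, since 4365 genes were called between 21 and 12 days. The share of false calls among the 4365 was not tested, nor was the effect of libraries that stand apart in groups of genes. Replicate numbers were not used as pairs. The members and gene lists were chosen with earlier results of these data known. Named genes were a panel of 9, the 12 largest rises and falls among called genes with a group mean of at least 100 and no overlap, and, per list, up to 6 called members with the largest change and up to 3 uncalled members with the highest mean. Members of lists of 20 or fewer were also allowed. Ctgf, Lrrc15, Krt33b, Krt82, Lox, Loxl1 and Prrx1, the Krtap family and the E2F elements were chosen after their values were seen. Protein sequences were not used here. Alternatives were other pseudocounts, scalings, filters, sample sets and weights, a replicate block, and leaving out each library.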

Additional observations from a re-analysis of the deposited data

Results flagged for a closer look

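For 115 named genes, each time was screened for a library far from the other 3 of its group by Dixon's criterion, 230 screens in all, and 18 libraries were picked out. Chance picks out about 1 in 20 groups. At 12 days, 7 of them were replicate 1: Mmp9 at 22667 against 1274 to 4023 in the others, Col11a1 at 9797 against 5811 to 6274, Sox9 at 913 against 617 to 652, Gprc5d at 225 against 24 to 49, Gm11568 at 288 against 28 to 64, Gm11559 at 86 against 9 to 15, and Gm11555 at 63 against 7 to 15. The other 12 day libraries were replicate 2 for Col2a1 at 500 and Scx at 438, replicate 3 for Chrdl1 at 170, and replicate 4 for Mcm5 at 729 and Pdpn at 414. At 21 days, Krt9 stood apart at 2854 in replicate 1, Pcna at 510 in replicate 2, Hoxa13 at 60 in replicate 3, and Ibsp at 1497, Il1rl1 at 20 and Per1 at 5230 in replicate 4.

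The change between 21 and 12 days differed after proximal from that after distal amputation for 60 of the 115 named genes in limma, 23 above and 37 below. Over all genes 7.42% stood above and 7.42% below. Many named genes, rises and falls alike, were chosen for the size of their change after proximal amputation. That change is part of the difference, so the choice raises the share among named genes, and the count is a description only. All values here are the log2 change after proximal minus that after distal amputation. The hard keratin and associated genes gave 6.10 for Gm11564, 5.29 for Krtap28-10, 4.27 for Krtap26-1, 4.0 for Krtap4-13, 3.99 for Gm11596, 3.52 for Gm11568, 3.26 for Gm11555, 3.18 for Gm11559 and 2.04 for Krt82. All of these but Krt82 were named for the size of their rise after proximal amputation. Of all 38 Krtap genes only 9 stood above the distal change. Krt6a, a wound keratin, gave 1.11. S100a9 gave 6.28, S100a8 gave 5.13, Lcn2 gave 3.95 and Mmp13 gave 3.31. Of these, S100a9 and S100a8 had their high values in the proximal 21 day replicates 2 and 3, and without replicate 2 their differences were 5.45 and 4.48. Cell cycle genes gave 1.31 for Anln, 1.23 for Mcm5, 1.19 for Mki67, 1.18 for Mcm3, 1.00 for Pole, 0.88 for Aurka and 0.67 for Pcna. Fosl1 gave 1.38 and Stc1 gave 0.88.

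Among genes below the distal change, cartilage genes gave -4.53 for Col10a1, -3.61 for Matn3, -2.61 for Acan, -1.84 for Col11a1 and -1.31 for Sox5. The Matn3 value was -2.63 without the proximal 21 day replicate 2, which is listed at 0. Collagens and their enzymes gave -1.45 for Col5a1, -1.38 for Col3a1, -1.08 for Loxl1, -1.01 for Plod2 and -0.84 for Serpinh1. Fibroblast and tendon genes gave -2.31 for Fbn2, -2.21 for Lrrc17, -2.20 for C1qtnf3, -2.16 for Thbs2, -1.58 for Scx, -1.42 for Postn, -1.16 for Bgn, -1.09 for Cthrc1, -1.01 for Fmod and -0.91 for Fbln2, with -1.32 for Mmp14 and -0.98 for Mmp2. Patterning genes gave -1.44 for Tbx4, -1.44 for Hoxa13, -1.40 for Prrx2, -1.29 for Twist1, -1.15 for Msx1, -1.05 for Prrx1 and -0.98 for Hoxd13. Imprinted and signalling genes gave -3.10 for Cyp26a1, -2.93 for H19, -2.25 for Mest, -2.09 for Tgfb3, -1.55 for Grb10, -1.12 for Wnt5a, -1.01 for Fstl1 and -0.78 for Fzd1.

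Each of the 16 libraries at 21 and 12 days was left out in turn. Of these 60 differences 49 kept their call throughout and none changed sign. The call was lost for Pcna without the distal 21 day replicate 3, for Gm11555 without the proximal 12 day replicate 2 or 3, for Matn3 without replicate 1 of the distal 12 or 21 day group, and for Msx1 without the distal 12 day replicate 1, the proximal 12 day replicate 3 or the proximal 21 day replicate 2. It was lost for Aurka without the proximal 12 day replicate 2 or 4, the proximal 21 day replicate 4 or the distal 21 day replicate 1, and for Sox5 without the proximal 12 day replicate 2, the proximal 21 day replicate 2, the distal 12 day replicate 1 or the distal 21 day replicate 3. For Serpinh1 it was lost on leaving out any of 7 libraries, for Gm11559 any of 8, for Hoxd13 any of 10, for Cthrc1 any of 11 and for Krt6a any of 12. Without the proximal 12 day replicate 1, which stood apart in these genes, the differences were larger, with 4.92 for Krtap26-1, 4.21 for Gm11568, 3.92 for Gm11555 and 3.87 for Gm11559. Gm11564 gave 5.43 without the distal 12 day replicate 4, and Krtap4-13 gave 3.42 without the distal 21 day replicate 4. S100a8 gave 4.48 without the proximal 21 day replicate 3 and 5.91 without replicate 4.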

How the results depend on the processing

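With all alternatives the counts of genes higher and lower at 21 days stayed within 1.5 times the reported 1802 and 2563: from 1397 to 1701 higher and from 2180 to 2354 lower on leaving out each library, 1819 and 2550 with a replicate block, 2099 and 2348 with median-ratio factors, and 1675 and 2416 with the least varying direction as a covariate, an alternative chosen after seeing the data. Same-numbered libraries correlated in their deviations by 0.041, 0.07, 0.158 and -0.01, so the numbers were not taken as pairs; under the block Acp5 (adjusted p = 0.038) and Krt36 (adjusted p = 0.043) passed the threshold. For the difference from distal amputation, table totals gave 595 genes below in place of 1117, and that scaling by its construction moved the median difference to 0.105; leaving out each library gave 860 to 1117 above and 869 to 1101 below. Of 96 named genes called, 93 kept their call whichever library was left out, and none changed direction. Among genes not called, Dmp1, Igf2 and Lcn2 changed sign on leaving out a library, with log2 values from -0.319 to 0.27 for Dmp1, from -0.087 to 0.329 for Igf2 and from -0.145 to 0.852 for Lcn2; the cause was not tested. Bglap (adjusted p = 0.045, 0.042 and 0.048) passed with only the groups compared, quality weights and table totals. Dcn (adjusted p = 0.044) passed and S100a8 (adjusted p = 0.070) did not with only the groups compared, and Pcna passed with quality weights (adjusted p = 0.032) and table totals (adjusted p = 0.044). The unknown depth limits what can be said of genes with low values.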
